A study of Mus musculus with 8 samples.

Results

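The expression of 10 genes of the integrated stress response was examined in the cortex of dcKO_hGFAP-Cre and control mice at P3 (postnatal day 3). They are the transcription factor genes Atf4, Atf5, Atf3 and Ddit3, the regulator genes Trib3, Chac1 and Ddit4, and the enzyme genes Asns, Phgdh and Psat1. They were matched by symbol to the 48709 Ensembl gene identifiers of the count data, and the match used no measured values. The list of genes itself was chosen with earlier results of these data known. All 10 were among the 16525 genes that passed the filter on low counts. RNA of 4 dcKO_hGFAP-Cre and 4 control mice on a C57BL/6J background was sequenced, from tissue that the methods call dorsal telencephalon (dTel). The dcKO_hGFAP-Cre mice carried floxed alleles of BAF155 (the gene Smarcc1) and BAF170 (Smarcc2) on both chromosomes together with hGFAP-Cre. In this line a human GFAP promoter drives the recombinase in radial glial progenitors of the dTel, and cells outside their lineage keep both genes. By the methods, controls had the same Cre with 1 floxed and 1 normal allele at both loci, but the labels call them wild type. The genes encode the scaffolding subunits of the BAF chromatin remodelling complex, and the comparison asked how their joint loss altered transcription in the newborn cortex.

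The integrated stress response starts when a kinase phosphorylates the translation initiation factor eIF2. The kinases are HRI (gene Eif2ak1), PKR (Eif2ak2), PERK (Eif2ak3) and GCN2 (Eif2ak4), which respond to haem shortage or oxidative and mitochondrial stress, double-stranded RNA, unfolded protein in the endoplasmic reticulum and amino acid shortage. Phosphorylated eIF2 lowers general protein synthesis while the mRNA of Atf4 is translated more, and the ATF4 protein then switches on genes of amino acid synthesis, amino acid import and tRNA charging. Because ATF4 is set largely at translation, the mRNA levels given here measure neither ATF4 protein nor eIF2 phosphorylation.

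The sequence that ATF4 and its C/EBP partners bind, the C/EBP-ATF response element, was looked for as TGATGNAA on both strands. The window ran from 250 bases before to 50 after each transcription start in RefSeq (build GRCm38.p6). It was present in 4 of the 10 genes and in 3.97% of all 32851 windows, and the cyclic AMP response element TGACGTCA was in 0 of the 10 and in 1.79% of all windows. The 10 genes have 12 windows, so a count of genes is not a share of windows. The 4 matches are shown on the strand of the gene in 30 bases of sequence, with the element in capitals. They start 110 bases before the start site of Atf3 (chr1:191183425-191183454, minus strand), at base 15 of the Trib3 transcript (chr2:152344028-152344057, minus strand), 193 bases before the start of Chac1 (chr2:119351038-119351067, plus strand) and 23 bases before that of Asns (chr6:7693214-7693243, minus strand). In all but Asns the element reads in the opposite direction to the gene. Start sites here are those of RefSeq, and they differ from the ends of the GENCODE gene spans given below. Against those spans, the Trib3 element lies before the start of the gene, and those of Atf3 and Asns lie inside it. The Psat1 bases shown next also lie inside the span of that gene.
Atf3: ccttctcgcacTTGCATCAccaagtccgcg
Trib3: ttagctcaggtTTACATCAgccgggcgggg
Chac1: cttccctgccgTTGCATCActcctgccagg
Asns: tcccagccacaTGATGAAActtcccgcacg

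The 250 bases before a start of Psat1 (chr19:15925060-15925309, minus strand), the gene with the largest change of the 10, are shown for comparison. They hold no match to either motif, and nor does the window at the other start of Psat1 in RefSeq.
Psat1: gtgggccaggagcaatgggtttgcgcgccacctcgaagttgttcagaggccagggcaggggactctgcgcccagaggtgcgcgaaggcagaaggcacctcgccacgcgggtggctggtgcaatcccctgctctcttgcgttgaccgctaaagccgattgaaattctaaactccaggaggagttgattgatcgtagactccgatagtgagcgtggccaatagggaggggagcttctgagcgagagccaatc

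Each sample gave between 21126713 and 32110285 counts in genes, so that 3 counts of a gene correspond to 0.0906 to 0.148 CPM (each count scaled by edgeR's TMM method to a common library total, the unit of all levels here). The deleted genes were lower in all 4 dcKO_hGFAP-Cre samples. Smarcc1 was at 159 ± 11.2 CPM (SD, n = 4) in control and 81.2 ± 5.90 CPM in dcKO_hGFAP-Cre, and Smarcc2 at 483 ± 14.7 and 283 ± 28.2 CPM. Of 10 markers of cortical excitatory neurons, 8 were called lower, and their summed level was 2061 to 2212 CPM in control and 1156 to 1306 CPM in dcKO_hGFAP-Cre. Markers of other cell types moved with the group too. GABAergic interneuron markers were higher in 8 of 8 (summed level 557 to 572 CPM in control, 885 to 959 CPM in dcKO_hGFAP-Cre), microglia markers in 6 of 8 (88.2 to 118 and 168 to 210 CPM) and striatal neuron markers in 6 of 10 (313 to 403 and 458 to 918 CPM), whereas oligodendrocyte precursor markers were lower in 7 of 7 (439 to 474 and 236 to 314 CPM). Of 8 endothelial and pericyte markers, 4 were called lower and 0 higher. Their summed level was 411 to 466 CPM in control and 269 to 411 CPM in dcKO_hGFAP-Cre, with overlap. The part of these cell types in the changes of the 10 genes and of the gene lists below was not tested. In bulk tissue, fewer cells of a type and less RNA per cell cannot be told apart. The dcKO_hGFAP-Cre samples were not alike. Choroid plexus markers summed to 619 and 1186 CPM in replicates 1 and 2, to 24.2 and 9.48 CPM in replicates 3 and 4, and to 5.21 to 14.5 CPM in control. Replicate 3 had the highest level of its group for 12 of 14 radial glia and astrocyte markers. Genes encoded by mitochondrial DNA took 2.06 to 3.23% of the counts in control and 3.57 to 5.47% in dcKO_hGFAP-Cre, and the part of this share in the results was not tested.

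The 10 genes did not move together in dcKO_hGFAP-Cre cortex. At an adjusted p under 0.05 in edgeR's quasi-likelihood test over all 16525 genes, Psat1, Ddit4, Ddit3 and Atf5 were higher and Asns was lower. Atf4, Atf3, Trib3, Chac1 and Phgdh were not called in either direction, although Atf3 and Trib3 had an unadjusted p of 0.0482 and 0.0473. Thus 4 of 10 rose, where 18.6% of all genes were called higher, and 1 of 10 fell, where 18.9% were called lower. The share called in either direction was 37.5% over all genes. The same 5 genes had no overlap between the 4 samples of each group, which held for 34.4% of all genes, 16.7% being higher and 17.7% lower. The median log2 fold change was 0.38 over the 10 genes and 0.02 over all genes. Scaling by library totals in place of TMM moved the median of all genes by 0.12 on the log2 scale, and its 4584 higher and 2102 lower calls compare with 3074 and 3128 by TMM. The median of the 10 genes lay 0.36 above that of all genes under both scalings, and that of the 8 genes left by a filter of at least 10 counts in each sample, which drops Atf3 and Trib3, was 0.18, or 0.15 above all genes. With dcKO_hGFAP-Cre replicates 1 and 2, which had the choroid plexus signal, both left out, 3 of the 10 genes were higher and 1 was lower, Atf5 losing its call (adjusted p = 0.134).

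**Figure D1:**
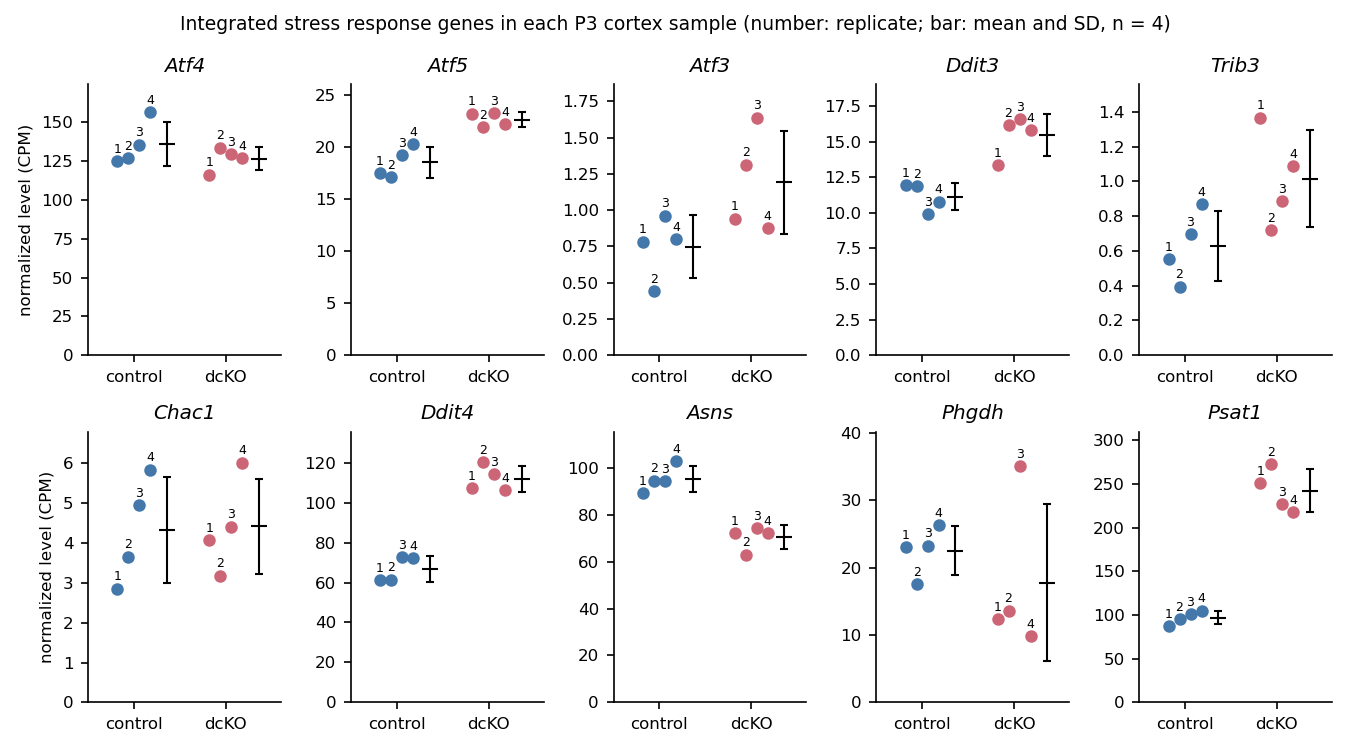
Normalized level (CPM, linear axes from 0) of each of the 10 genes in the 4 control (blue) and 4 dcKO_hGFAP-Cre (red) samples, with the replicate number above each point and the mean and SD beside each group. The groups lie apart for Atf5, Ddit3, Ddit4, Psat1 (dcKO_hGFAP-Cre above) and Asns (below), and for Phgdh dcKO_hGFAP-Cre replicate 3 at 35.1 CPM lies far above the other 3.

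Atf4 (ENSMUSG00000042406, chr15:80255184-80257541 of mm10), the central transcription factor of the response, was among the more abundant of the 10 mRNAs and differed little between groups. Its levels were 125, 127, 135 and 156 CPM in control replicates 1 to 4 and 116, 134, 130 and 127 CPM in dcKO_hGFAP-Cre replicates 1 to 4. The groups overlapped, and 3 of the 4 mutant values lay within the control range. As a log2 fold change this was -0.10 ± 0.09 (SE, adjusted p = 0.371), and its sign turned under library totals, at 0.02.

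Atf5 (ENSMUSG00000038539, chr7:44812256-44816658), a related factor whose mRNA is also translated preferentially when eIF2 is phosphorylated, and which is known for keeping neural progenitors dividing and for the mitochondrial unfolded protein response, was slightly higher. It was at 17.5, 17.1, 19.2 and 20.3 CPM in control and at 23.2, 21.9, 23.3 and 22.2 CPM in dcKO_hGFAP-Cre. The groups did not overlap, but the gap between them was small. Its log2 fold change of 0.29 ± 0.10 (adjusted p = 0.0308) was a 1.22-fold difference, and it lost its call when any of control replicates 1, 2 and 3 or dcKO_hGFAP-Cre replicates 1 and 3 was left out (adjusted p = 0.0622, 0.0821, 0.0604, 0.0730 and 0.0513). Its log2 ratios within sequencing lanes 5, 6 and 7, each of which held both groups, were 0.38, 0.28 and 0.13. Of the 1993 exon bases of Atf5, 82 are shared with Nup62 and Il4i1 on the opposite strand, and the library kit does not mark strand.

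Ddit3 (ENSMUSG00000025408, chr10:127290774-127296288) encodes CHOP, the factor linked to cell death under prolonged stress of the endoplasmic reticulum. Its levels were 11.97, 11.88, 9.93 and 10.8 CPM in control and 13.3, 16.2, 16.6 and 15.8 CPM in dcKO_hGFAP-Cre. All 4 mutant samples lay above every control, replicate 1 only just. On the log2 scale the difference was 0.48 ± 0.12 (adjusted p = 0.00671), a 1.39-fold difference that stayed called with each sample left out, and the log2 ratios within lanes 5, 6 and 7 were 0.31, 0.74 and 0.55. Of its 1713 exon bases, 105 are shared with a second annotated gene of the same name and strand, 68 with Mars, the methionyl-tRNA synthetase gene, and 13 with Gm4189, both on the opposite strand.

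Atf3 (ENSMUSG00000026628, chr1:191170296-191218039), a factor induced by many kinds of stress and injury, was close to the detection limit. Only 17, 9, 29 and 23 counts fell on it in control and 22, 31, 48 and 29 counts in dcKO_hGFAP-Cre, which is 0.782, 0.444, 0.963 and 0.798 CPM against 0.941, 1.31, 1.64 and 0.875 CPM. The groups overlapped, with 2 of 4 mutant samples above every control. A log2 fold change of 0.65 ± 0.30 did not pass the test (adjusted p = 0.103), and with counts this low a 1.57-fold difference could not be told from none.

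Trib3 (ENSMUSG00000032715, chr2:152337422-152344032) encodes a pseudokinase that feeds back on ATF4, and it is a sensitive ATF4 target in many cell types. It had 12, 8, 21 and 25 counts in control (0.552, 0.394, 0.697 and 0.868 CPM) and 32, 17, 26 and 36 counts in dcKO_hGFAP-Cre (1.37, 0.720, 0.887 and 1.09 CPM). All mutant samples but replicate 2 lay above every control, and replicate 2 lay within the control range. Its log2 fold change was 0.66 ± 0.30 (adjusted p = 0.102).

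Chac1 (ENSMUSG00000027313, chr2:119351229-119354381), a glutathione-degrading enzyme downstream of ATF4, gave no direction at all. It was at 2.85, 3.65, 4.95 and 5.83 CPM in control and at 4.06, 3.18, 4.40 and 6.01 CPM in dcKO_hGFAP-Cre. The spread within either group was about as wide as all 8 samples together. Its log2 fold change was 0.03 ± 0.24 (adjusted p = 0.940), and it lay between -0.14 and 0.20 with single samples left out.

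Ddit4 (ENSMUSG00000020108, chr10:59949669-59951834) encodes REDD1, an inhibitor of the growth kinase mTORC1. Its levels were 61.0, 61.4, 72.8 and 72.1 CPM in control and 107, 120, 114 and 106 CPM in dcKO_hGFAP-Cre. The lowest mutant sample was well above the highest control. The log2 fold change was 0.74 ± 0.09 (adjusted p = 5.02e-05), or 1.67-fold. Within lanes, the log2 ratio was 0.89 on lane 5 (2 samples a group), 0.65 on lane 6 and 0.56 on lane 7 (1 sample a group each).

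**Figure D2:**
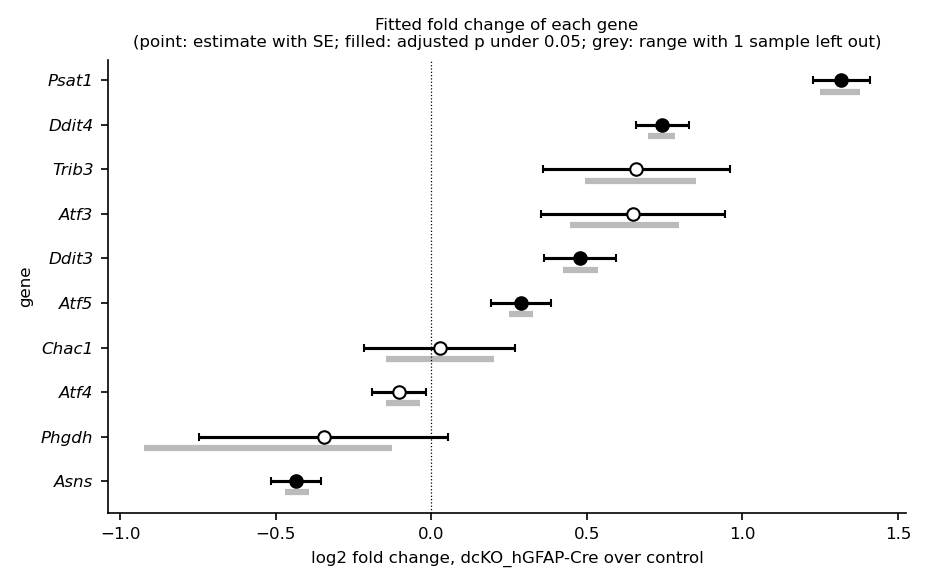
Log2 fold change of dcKO_hGFAP-Cre over control for each of the 10 genes, as points with SE, filled where the adjusted p was under 0.05; the grey bars give the range of the estimate when 1 sample was left out. Psat1 stands at 1.32, the called rises of Ddit4, Ddit3 and Atf5 and the fall of Asns are smaller, and the bar of Phgdh reaches from -0.92 to -0.12.

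The enzyme genes went in different directions. Asns (ENSMUSG00000029752, chr6:7675169-7693254), which encodes asparagine synthetase and is a standard readout of amino acid shortage through the element printed above, was lower. It was at 89.1, 94.5, 94.3 and 103 CPM in control and at 72.2, 63.0, 74.3 and 72.2 CPM in dcKO_hGFAP-Cre. Every mutant sample lay below every control. The log2 fold change was -0.43 ± 0.08 (adjusted p = 0.00129), so that control was 1.35-fold higher, and within lanes 5, 6 and 7 the log2 ratios were -0.44, -0.34 and -0.51.

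Psat1 (ENSMUSG00000024640, chr19:15904678-15947337), the aminotransferase of the middle step of serine synthesis, had the largest difference of the 10. Its levels were 87.2, 95.2, 101 and 105 CPM in control and 251, 272, 227 and 218 CPM in dcKO_hGFAP-Cre. The groups were separated by more than the whole spread of either. The log2 fold change was 1.32 ± 0.09 (adjusted p = 1.57e-06), or 2.49-fold, and the log2 ratios within lanes 5, 6 and 7 were 1.52, 1.17 and 1.05. Without dcKO_hGFAP-Cre replicates 1 and 2 it was 1.20, with an adjusted p of 0.0001.

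Phgdh (ENSMUSG00000053398, chr3:98313170-98339990), the dehydrogenase that starts serine synthesis and in brain is found mainly in radial glia and astrocytes, split the mutant group. It was at 23.0, 17.6, 23.3 and 26.3 CPM in control and at 12.4, 13.6, 35.1 and 9.87 CPM in dcKO_hGFAP-Cre. Replicates 1, 2 and 4 of the mutants lay below every control, and replicate 3 lay above every control. The log2 fold change was -0.35 ± 0.40 (adjusted p = 0.535) with all samples and -0.92 (adjusted p = 0.000572, called lower) without replicate 3. Without replicates 1 and 2 it was -0.02 (adjusted p = 0.983).

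The glial markers of the same samples had the order of Phgdh in dcKO_hGFAP-Cre but not in control. Of the 14 radial glia and astrocyte markers, 3 were called higher and 2 lower, none was at 0 in all samples, and their summed level was 2284 to 2395 CPM in control. In control replicates 1 to 4 the sum was 2287, 2395, 2311 and 2284 CPM. It was highest in replicate 2, where Phgdh was lowest, and lowest in replicate 4, where Phgdh was highest. In dcKO_hGFAP-Cre replicates 1 to 4 the sum was 1823, 1963, 3400 and 1583 CPM, the same order as the Phgdh levels. As 2 examples, which do not stand for the whole list, Gfap was at 79.3 to 89.5 CPM in control and at 24.2, 32.2, 273 and 26.2 CPM in the 4 mutant samples. Aldoc was at 164 to 215 CPM and at 42.03, 43.5, 245 and 33.2 CPM. Neither is among the 3 markers called higher, whose levels are not given here. The median log2 fold change of the 14 markers was -0.04, and dcKO_hGFAP-Cre replicate 3 had the highest level of its group for 12 of them. The part of these markers in the level of Phgdh was not tested.

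Psat1 did not follow the order of the marker sum in dcKO_hGFAP-Cre. Its level in dcKO_hGFAP-Cre replicate 3, 227 CPM, lay between those of replicates 1 and 4, and all 4 mutant samples were above control. Among the mutants, only replicate 3 had a high marker sum. The part of glial and other cell type markers in the level of Psat1 was not tested. The ratio of Psat1 to Phgdh, each per kilobase of exon, was 2.21, 3.16, 2.53 and 2.34 in control and 11.8, 11.7, 3.78 and 12.9 in dcKO_hGFAP-Cre, so the ratio was higher in each mutant sample than in any control. Psph, the phosphatase of the last step, was at 18.9, 19.9, 20.1 and 22.4 CPM in control and at 19.9, 21.9, 31.1 and 17.5 CPM in dcKO_hGFAP-Cre, again highest in replicate 3. It was not called (log2 fold change 0.16 ± 0.16, adjusted p = 0.460), and its sign turned without replicate 3 (-0.04). With all samples in the fit, Psat1 was thus the sole called gene of these 3 enzymes.

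**Figure D3:**
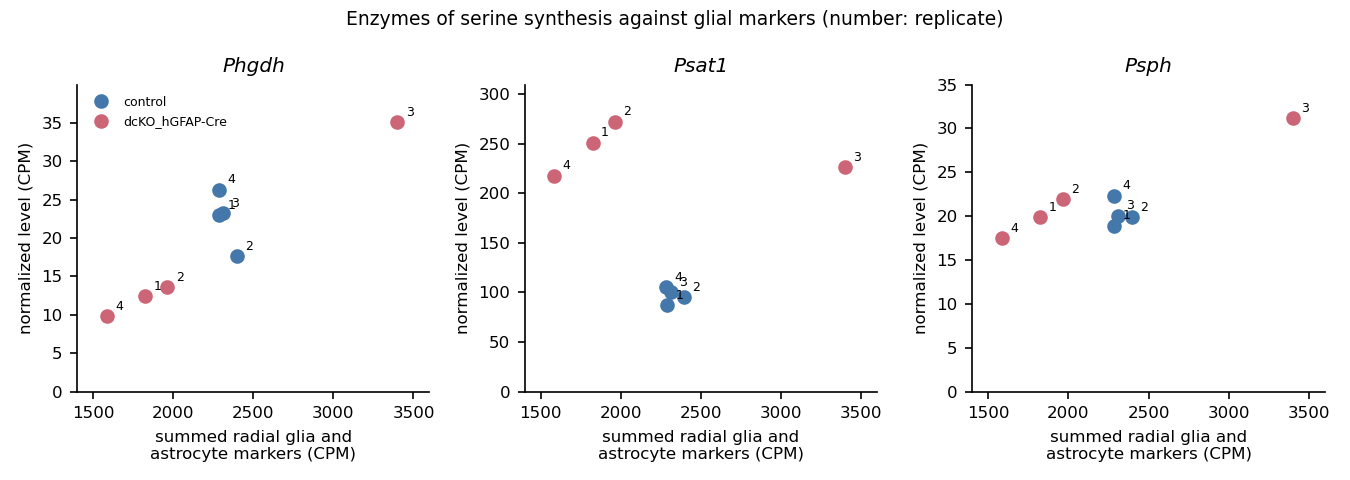
Level (CPM) of Phgdh, Psat1 and Psph in each sample against the summed level of 14 radial glia and astrocyte markers (CPM), control in blue and dcKO_hGFAP-Cre in red, with replicate numbers. Phgdh of the mutants lies at 9.87 to 13.6 CPM where the marker sum is 1583 to 1963 CPM and at 35.1 CPM where it is 3400 CPM, whereas Psat1 lies at 218 to 272 CPM in all 4.

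The order of abundance of the 10 mRNAs also differed between groups. Per kilobase of exon, the control order was Atf4 (57.6 ± 6.11 CPM per kb, SD, n = 4), Ddit4 (38.1 ± 3.69), Asns (34.8 ± 2.09), Psat1 (22.8 ± 1.81), Atf5 (9.29 ± 0.746), Phgdh (9.07 ± 1.45), Ddit3 (6.50 ± 0.566), Chac1 (2.64 ± 0.810), Atf3 (0.347 ± 0.101) and Trib3 (0.295 ± 0.0951). Neighbours whose samples overlapped in control were Ddit4 and Asns, Atf5 and Phgdh, and Atf3 and Trib3. In dcKO_hGFAP-Cre, Ddit4 (63.8 ± 3.76 CPM per kb), Psat1 (56.9 ± 5.79) and Atf4 (53.7 ± 3.14) came first, each overlapping the next. Asns (25.7 ± 1.85) followed in the fourth place, below all samples of Atf4.

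Members were then set beside the presence of the ATF4-binding element. Of the 4 genes called higher, 0 had a match to the C/EBP-ATF response element in the window searched, whereas Asns, called lower, and 3 of the 5 genes not called had one. Over all windows the share with a match was 3.97%, so 0 among 4 genes is the usual outcome. No conclusion is drawn from these counts. The match is a description of these letters only, and binding of ATF4 was not measured. Sequence outside the window was not searched, so elements there would be missed.

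Upstream of Atf4, the eIF2 kinase genes gave 1 call. For the counts in this paragraph, the shares over all genes were 18.6% called higher and 18.9% called lower. Eif2ak1, the gene of HRI, fell from 81.8 ± 6.55 to 54.6 ± 2.03 CPM (SD, n = 4), a log2 fold change of -0.58 ± 0.08 (adjusted p = 0.000183), with every mutant sample below every control. Eif2ak3 (log2 fold change -0.16 ± 0.10, adjusted p = 0.226), Eif2ak4 (0.23 ± 0.12, adjusted p = 0.162, 0.0202 without dcKO_hGFAP-Cre replicate 3 and 0.0396 under library totals) and Eif2ak2 (-0.09 ± 0.17, adjusted p = 0.710, and 0.03 under library totals) were not called. Of 11 genes of eIF2, its exchange factor eIF2B, the eIF2 phosphatase regulators and GCN1, 0 rose and 2 fell, the constitutive phosphatase subunit gene Ppp1r15b by 0.30 on the log2 scale (adjusted p = 0.00542) and Gcn1, the partner of GCN2, by 0.32 (adjusted p = 0.00799). Both calls were lost under library totals and without dcKO_hGFAP-Cre replicates 1 and 2. Under library totals 1 gene of this list rose instead, Eif2s2, named after its values were seen (adjusted p = 0.0242). The stress-induced phosphatase subunit gene Ppp1r15a (GADD34), itself an ATF4 and CHOP target, was at 18.9 and 18.7 CPM (log2 fold change -0.01 ± 0.10, adjusted p = 0.931).

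Of 8 genes of bZIP factors that pair with ATF4 or act beside it, 7 were tested, 0 rose and 2 fell. The shares over all genes were 18.6% called higher and 18.9% called lower. Cebpg, which encodes the usual dimer partner of ATF4 at amino acid genes, changed by a log2 value of -0.46 ± 0.13 (adjusted p = 0.0165), although its samples overlapped, and the call was lost without control replicate 2 (adjusted p = 0.0542), under library totals (0.0523) and without dcKO_hGFAP-Cre replicates 1 and 2 (0.123). Nfil3 changed by -0.42 ± 0.10 on the same scale (adjusted p = 0.00652), its samples not overlapping.

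The remaining lists held genes counted here as ATF4 targets, a link that was not tested. Over all genes, 18.6% were called higher and 18.9% lower. Of 14 aminoacyl-tRNA synthetase genes, 0 rose and 7 fell, with a median log2 fold change of -0.21, the number that fell being 4 under library totals or without control replicate 3 and 2 without dcKO_hGFAP-Cre replicates 1 and 2. The larger differences were those of Wars (-0.53 ± 0.09, adjusted p = 0.00091) and Nars (-0.38 ± 0.09, adjusted p = 0.00452), which load tryptophan and asparagine. Of 9 amino acid transporter genes, 1 rose and 4 fell, with a median of -0.36, and without dcKO_hGFAP-Cre replicates 1 and 2, 0 rose and 4 fell, with a median of -0.19. Slc7a1, an importer of arginine and lysine, fell from 154 ± 10.9 to 90.6 ± 9.85 CPM (-0.76 ± 0.09, adjusted p = 6.54e-05). Slc7a5, the LAT1 importer of large neutral amino acids, fell from 251 ± 20.4 to 155 ± 2.09 CPM (-0.70 ± 0.08, adjusted p = 3.14e-05). Slc1a4, which carries serine and alanine, changed by -0.62 ± 0.11 (adjusted p = 0.000883). The 1 that rose was Slc7a3, a second importer of arginine and lysine (0.58 ± 0.19, adjusted p = 0.0279), which lost its call without control replicate 3 or 4 or dcKO_hGFAP-Cre replicate 4.

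Of 12 further enzyme genes of serine, glycine, one-carbon and proline metabolism and transamination, 2 rose and 2 fell. Over all genes 18.6% were called higher and 18.9% lower, so both counts are near those shares. Both that rose belong to proline synthesis, Pycr1 (0.48 ± 0.11, adjusted p = 0.00559) and Aldh18a1 (0.39 ± 0.11, adjusted p = 0.0118). Pycr1 lost its call without dcKO_hGFAP-Cre replicates 1 and 2 (adjusted p = 0.110). Those that fell act in mitochondrial folate metabolism, Mthfd1l (-0.66 ± 0.13, adjusted p = 0.00181) and Aldh1l2 (-0.28 ± 0.10, adjusted p = 0.0454). Aldh1l2 lost its call with any 1 sample left out other than dcKO_hGFAP-Cre replicate 4, and the number of genes that fell was between 1 and 6 over the alternative settings. Of 12 other ATF4 targets, 10 were tested, 0 rose and 2 fell, namely Ndrg1 and Stc2. Ndrg1 (-1.28 ± 0.12, adjusted p = 1.2e-05) is a stress-responsive gene that oligodendrocytes and other glia also express. Stc2 (-0.56 ± 0.17, adjusted p = 0.0219) encodes a secreted glycoprotein and lost its call without control replicate 3 or 4 or dcKO_hGFAP-Cre replicate 2. Its call was also lost under library totals (adjusted p = 0.0566) and without dcKO_hGFAP-Cre replicates 1 and 2 (0.135).

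With these 4 target lists put together, a step chosen after their values were seen, 3 of 45 tested genes (6.67%) were called higher and 15 (33.3%) lower, against 18.6% and 18.9% of all genes. Their median log2 fold change was -0.18, which was 0.20 below that of all genes. Under library totals 4 rose and 10 fell, with a median of -0.06, again 0.20 below all genes. Without dcKO_hGFAP-Cre replicates 1 and 2, 1 rose and 8 fell. In each list above with 0 rises by edgeR, from the kinases to the other targets, 0 genes were higher at an unadjusted p under 0.05 and 0 by DESeq2 or limma-voom. Other settings gave 1 rise among the kinases (library totals, or without dcKO_hGFAP-Cre replicate 3), 1 in the eIF2 and eIF2B list (library totals) and 1 among the other targets (without dcKO_hGFAP-Cre replicate 4).

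**Figure D4:**
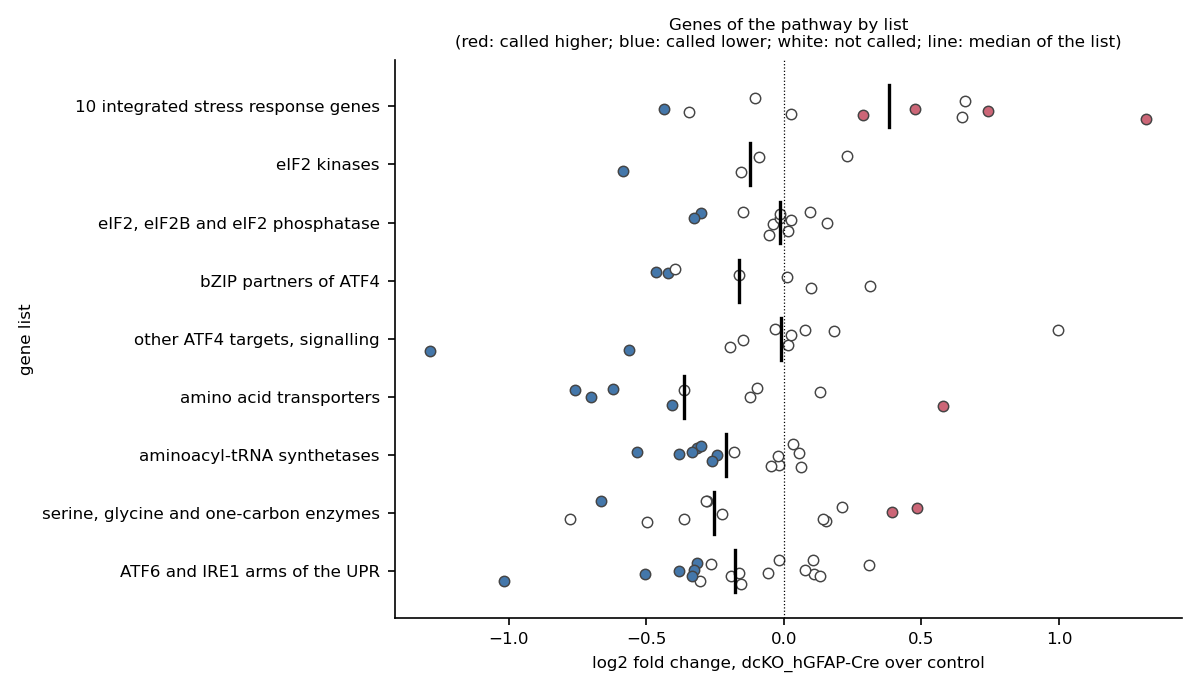
Log2 fold change (dcKO_hGFAP-Cre over control) of each tested gene of 9 lists, 1 point a gene, red where called higher, blue where called lower and white where not called, with a line at the median of each list. The median is 0.38 for the 10 genes described, -0.21 for aminoacyl-tRNA synthetases and -0.36 for amino acid transporters.

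The other arms of the response to unfolded protein gave falls and no rise. Of 18 genes of the ATF6 and IRE1 arms, 0 were called higher by edgeR, DESeq2 or limma-voom or at an unadjusted p under 0.05 and 6 were lower, with a median log2 fold change of -0.18. Over all genes, 18.6% were called higher and 18.9% lower. Edem1, which helps to clear misfolded glycoprotein, fell from 53.8 ± 2.68 to 26.5 ± 2.04 CPM (-1.02 ± 0.09, adjusted p = 5.46e-06). Sel1l (-0.50 ± 0.09, adjusted p = 0.00113), of the same disposal route, and Atf6 itself (-0.38 ± 0.09, adjusted p = 0.00484) also fell. Hspa5, which encodes the chaperone BiP and is the usual marker of stress in the endoplasmic reticulum, was at 291 and 314 CPM and was not called (0.11 ± 0.12, adjusted p = 0.490). The count of genes that fell was 3 under library totals and 2 without dcKO_hGFAP-Cre replicates 1 and 2.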

How the data were processed

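Total RNA of P3 cortex was isolated with TRIZOL and made into libraries with the TruSeq RNA v2 kit, which does not mark strand. The authors used mm10 as the genome and featureCounts for counting, and deposited the raw counts of each of the 8 samples without normalization. The aligner, the gene annotation release and the strand and multi-mapping settings are not given in the sources used here, so counts of overlapping genes are uncertain. Total counts per sample were 21126713 to 32110285. Symbols, coordinates and exon lengths were taken from GENCODE's annotation of the same build, which matched 48349 of the 48709 identifiers. The members, gene lists and tests were chosen with earlier results of these data known.

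Groups followed the sample labels. Counts were tested with edgeR's quasi-likelihood method (edgeR 4.0.16 in R 4.3.3) after TMM normalization, with edgeR's filter on low counts (minimum count 10), no block and Benjamini-Hochberg adjustment over 16525 genes, threshold 0.05. The F statistic of each gene gave the standard error of its fold change. Fold changes are dcKO_hGFAP-Cre over control. The p-values measure the spread between these samples, and no source used here says how the animals were related. No pair of replicates agreed within counting noise. Named genes were the 10 members, the deleted genes, the eIF2 kinases and up to 4 called genes with the largest change in each other list, with genes that show a named function not to be called. Gfap and Aldoc were named outside this rule. Promoter windows came from RefSeq. The scripts were tested on simulated data. Alternatives were DESeq2 (version 1.42.0), limma-voom (limma version 3.58.1), DESeq2's size factors, library totals, no filter, a stricter filter (at least 10 counts in all samples), a block for lane or for replicate number, and each sample left out. Leaving out dcKO_hGFAP-Cre replicates 1 and 2 together was chosen after seeing the data. They are the only mutant samples of lane 5, and the controls of lane 5 stayed in this fit. Choroid plexus signal and lane 5 therefore cannot be told apart among the mutants.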

Additional observations from a re-analysis of the deposited data

Results flagged for a closer look

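In 136 groups of 4 values (each named gene and each summed marker list in control and in dcKO_hGFAP-Cre), a value was looked at again where its gap to the nearest other exceeded the critical share of the group's range in Dixon's test. This held for 6 groups, and chance gives about 1 in 20 groups, or 6.8. Phgdh in dcKO_hGFAP-Cre replicate 3 was at 35.07 CPM, against 9.87 to 13.6 CPM in the other mutant samples. In the same sample Fosb was at 3.207 CPM, against 1.19 to 1.41 CPM. Stc2 in dcKO_hGFAP-Cre replicate 2 was at 2.754 CPM, against 3.75 to 3.89 CPM. Edem1 in control replicate 1 was at 49.8 CPM, against 54.7 to 55.5 CPM. Markers of striatal neurons summed to 403 CPM in control replicate 2, against 313 to 322 CPM in the other controls. Endothelial and pericyte markers summed to 268.6 CPM in dcKO_hGFAP-Cre replicate 4, against 389 to 411 CPM.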

How the results depend on the processing

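Psat1, Ddit4, Ddit3 and Asns kept their direction and their call under all 17 alternatives, with log2 fold changes of 1.20 to 1.44, 0.70 to 0.87, 0.42 to 0.60 and -0.47 to -0.31. Atf5 kept its direction and was called in 9 of 17, losing the call without the filter on low counts (adjusted p = 0.0857), with the replicate number as a block (0.0585), with 5 single samples left out and without dcKO_hGFAP-Cre replicates 1 and 2 (0.134). With single samples left out, 3 to 4 of the 10 genes were higher and 1 to 2 lower, the 2 being Asns and Phgdh without dcKO_hGFAP-Cre replicate 3. Values not called that changed sign were those of Atf4 (log2 fold change of 0.019), Eif2ak2 (0.031) and Ppp1r15a (0.106) under library totals, and that of Ppp1r15a under the stricter filter on low counts (0.0025). With single samples left out, Chac1 lay between -0.145 and 0.201, Eif2ak2 between -0.210 and 0.041, Ppp1r15a between -0.076 and 0.036 and Psph between -0.043 and 0.277. Over all genes, leaving out dcKO_hGFAP-Cre replicates 1 and 2 left 1388 higher and 1581 lower calls with fewer samples. The replicate block gave 2932 higher and 2982 lower calls. Same-numbered samples did not deviate together (correlations 0.17, -0.07, 0.21 and -0.02), so the number was not taken as a pairing, and not every sample correlated best with its own number. Atf3 and Trib3 have no value under that filter, which required at least 10 counts in all samples, and at their 8 to 48 counts a sample depth limits what can be told.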

Other observations

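Ddit4, Atf3 and Ddit3 are known to respond to other stimuli as well, and lists for these were read from the same test. Of 11 hypoxia genes 1 rose, Ankrd37 (log2 fold change 1.06 ± 0.20, adjusted p = 0.00159), and 3 fell, among them Car9 (-1.44 ± 0.30, adjusted p = 0.00286) and the glucose transporter gene Slc2a1 (-0.54 ± 0.12, adjusted p = 0.00445). Of the 1539 exon bases of Ankrd37, 349 are shared with Lrp2bp and 57 with Ufsp2, both on the opposite strand, so its count is uncertain. Of 9 glucocorticoid-responsive genes 0 rose by edgeR, DESeq2 or limma-voom (2 at an unadjusted p under 0.05) and 3 fell. They were Zbtb16 (-1.21 ± 0.13, adjusted p = 2.87e-05), Sgk1 (-1.03 ± 0.08, adjusted p = 3.85e-06) and Klf9 (-0.85 ± 0.23, adjusted p = 0.0156). Klf9 lost its call without dcKO_hGFAP-Cre replicate 4 (adjusted p = 0.052), without the filter on low counts (0.0842) and without dcKO_hGFAP-Cre replicates 1 and 2 (0.0547). Of 11 p53 targets 1 rose, Eda2r (1.09 ± 0.24, adjusted p = 0.0042), and 3 fell, Zmat3, Aen and Plk2, by 0.55, 0.50 and 0.49 on the log2 scale. Over all genes tested, 18.6% were called higher and 18.9% lower.

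Atf3 is often counted with the immediate early genes. Of 13 of these, 6 rose and 1 fell, with a median log2 fold change of 0.36, which was 0.21 without dcKO_hGFAP-Cre replicate 3 (5 rose) and 0.56 without replicates 1 and 2 (6 rose). Fos rose from 3.23 ± 1.18 to 9.30 ± 1.03 CPM (1.54 ± 0.21, adjusted p = 0.000196), Fosb by 1.71 ± 0.37 (adjusted p = 0.00335) and Npas4 by 1.15 ± 0.20 (adjusted p = 0.000895). Of 10 genes of mitochondrial stress and proteostasis, the chaperonin gene Hspe1 (0.56 ± 0.12, adjusted p = 0.00369) and the protease gene Clpp (0.45 ± 0.13, adjusted p = 0.0137) rose, whereas Hspd1, whose product works with that of Hspe1, fell by 0.31 on the log2 scale (adjusted p = 0.012). Hspe1 and Hspd1 share 112 exon bases on opposite strands. Counts over these lists moved with the setting. Under library totals 3 hypoxia genes rose and 2 fell, which turned the balance of that list, and 2 glucocorticoid genes, 5 p53 targets, 4 genes of mitochondrial stress and 9 immediate early genes rose. Without dcKO_hGFAP-Cre replicates 1 and 2, 0 p53 targets and 1 gene of mitochondrial stress rose, and 1 and 0 fell.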
